A study of Saccharomyces cerevisiae with 6 samples.

Results

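Cryptic unstable transcripts (CUTs) are short noncoding RNAs of budding yeast, and 925 of the 7247 rows in the expression table studied here carry a CUT name. The members are all rows whose name starts with CUT, whatever their level. Of the other rows, 847 carry the name of a stable unannotated transcript (SUT) and 5475 that of a gene. The yeast was labelled BY4741, a haploid MATa laboratory strain, in all 3 groups of 2 samples: untreated WT, a bud27 deletion mutant (called the mutant below), and WT grown overnight with rapamycin at 50 ng/ml. All grew in rich glucose medium (YPD) at 30 °C to an optical density near 0.8. Bud27 is related to the prefoldin chaperones, and rapamycin blocks the growth-promoting kinase TORC1. The study set both conditions against WT. No strain in the study lacks a part of the RNA decay machinery.

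CUTs are made by RNA polymerase II, often from the open chromatin of gene promoters and in the direction away from the gene. The Nrd1-Nab3-Sen1 complex ends them early, the TRAMP complex adds a short poly(A) tail, and the nuclear exosome with its subunit Rrp6 degrades them, so they are scarce in normal cells and were catalogued in cells without Rrp6. SUTs come from similar places but last long enough to be seen in normal cells. Libraries here were made with a kit that reads polyadenylated RNA from near its 3′ end, so a value counts transcript ends and does not grow with length.

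The table holds read counts scaled to library size (CPM), and the number of reads behind each value could be recovered. Library totals ran from 18153459 to 28774941 reads in WT and under rapamycin, but came to only 3212848 and 5088194 in the mutant. The targeted gene BUD27 had reads of 268 and 246 in WT, 326 and 234 under rapamycin, and 6 and 9 in the mutant. In scaled CPM (CPM divided by a library factor, TMM) it had 13.0 and 16.8 in WT and 1.66 and 1.75 in the mutant. Of the mating type markers, the a-cell genes STE2 and MFA1 had between 819 and 9621 and between 635 and 66708 reads in each library, and the alpha-factor gene MF(ALPHA)1 at most 1. STE3, a receptor gene of alpha cells, had 89 and 42 reads in WT and 221 and 183 under rapamycin, but 2 and 1 in the mutant. Its scaled CPM were 4.31 and 2.88 in WT, 6.44 and 7.32 under rapamycin, and 0.555 and 0.195 in the mutant.

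All groups carry the label of 1 strain, but some nutritional marker genes differed between the mutant and WT, TRP1 most of those measured. TRP1, a tryptophan gene that is intact in BY4741, had 5 and 8 reads in the mutant libraries against 738 and 626 in those of WT, and its log2 change was -4.02 (SE 0.17, adjusted p = 3.8e-06). HIS3, which BY4741 carries in a truncated form, shares its row with the overlapping YOR203W. This row was higher in the mutant, at 361 and 245 scaled CPM against 54.4 and 47.2 in WT (log2 change 2.53, SE 0.19, adjusted p = 5.6e-05). It was also higher under rapamycin than in untreated WT, at 142 and 134 (log2 change 1.43, SE 0.19, adjusted p = 0.00064). LEU2, which is deleted in BY4741, had 19 and 22 reads in the mutant, 1 and 14 in WT and 1 and 1 under rapamycin. Its scaled CPM were 5.27 and 4.28 in the mutant and 0.0485 and 0.958 in WT. URA3, deleted in BY4741 too, had between 10 and 70 reads in each library. Its log2 change in the mutant was -0.14 (SE 0.19, adjusted p = 0.57). MET17, likewise deleted there, was read 31 and 80 times in WT, 2 and 3 times in the mutant and not at all under rapamycin. Any difference in strain background between the mutant and WT libraries cannot be told apart from the loss of BUD27 in each comparison that uses the mutant. Whether the paired samples of a group grew as separate cultures is not stated, so the spread behind each p-value may be only technical. In bulk RNA a lower level in each cell and fewer cells with the transcript cannot be told apart.

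The table gives no positions for CUTs, but for 29 of them the reads point to a gene. Each of these rows had at least 300 reads in all and, in every library, a count within 0.1 log2 units of the same gene row. Of the 29, 26 stayed within 0.05 log2 units and 13 within 0.01. The match of CUT074 with RGP1 varied most between libraries. CUT074 had 458 and 333 reads in WT against 435 and 312 for the gene, and 720 and 563 under rapamycin against 764 and 579. It need not hold the same reads. The gene ends behind the 6 with the most reads are shown because their transcripts are what these CUT rows count. Each line gives the last 60 coding bases of the gene, 5′ to 3′ on its own strand, from the RefSeq R64 reference, with the stop codon in capitals.
TDH3: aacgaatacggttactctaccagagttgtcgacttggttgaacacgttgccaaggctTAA
RPP1A: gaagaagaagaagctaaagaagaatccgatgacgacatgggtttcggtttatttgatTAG
RPL20A: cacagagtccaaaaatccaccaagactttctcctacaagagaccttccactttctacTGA
RPS0B: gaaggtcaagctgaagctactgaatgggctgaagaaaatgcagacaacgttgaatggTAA
RPS18A: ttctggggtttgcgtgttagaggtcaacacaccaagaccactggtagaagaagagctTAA
HXT1: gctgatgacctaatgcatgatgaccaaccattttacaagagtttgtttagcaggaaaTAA

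CUT628, the CUT row with the most reads, held 2927011 reads over the 6 libraries, and the row of TDH3 held 2927009. TDH3, the main glyceraldehyde-3-phosphate dehydrogenase gene of glycolysis, lies on chromosome VII from 882812 to 883810 on the minus strand. In WT the reads of CUT628 came to 920930 and 618284, in the mutant to 67175 and 112230, and under rapamycin to 731724 and 476668. Its log2 change against WT was -1.11 in both (SE 0.38, adjusted p = 0.043 each). On the deposited CPM, without the library factors, its change was -0.67 in the mutant (limma, adjusted p = 0.0499). Under rapamycin it was -0.50 there and did not pass limma's test (adjusted p = 0.11). This row alone took between 54.5% and 58.1% of all CUT reads in each library.

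The next 4 rows by shared reads match ribosomal protein genes. CUT484 held 525156 reads against 528990 for RPP1A, an acidic stalk protein gene on chromosome IV from 309802 to 310122 on the minus strand. CUT787 held 108176 against 108646 for RPL20A on chromosome XIII from 753225 to 754220 on the minus strand, and CUT253 held 80423 against 80872 for RPS0B on chromosome XII from 242232 to 243349 on the plus strand. CUT096 held 79984 reads against 79964 for RPS18A, on chromosome IV from 1359923 to 1360798 on the plus strand. RPL20A, RPS0B and RPS18A have near-identical copies in the genome, so the split of their reads is uncertain. The sixth, CUT648, held 14910 reads against 14920 for HXT1, a low-affinity glucose transporter gene on chromosome VIII from 290913 to 292625 on the minus strand. Next came CUT290 with PSP2 and CUT052 with RPN5, a proteasome lid subunit. All 8 rows hold a gene's reads, so they cannot be read as measurements of a noncoding RNA. Their differences were those of the gene rows: against WT, CUT648 had a log2 change of -0.95 in the mutant and -2.87 under rapamycin (SE 0.15 each, adjusted p = 0.0019 and 1e-05), and CUT484 one of -1.97 and -1.47 (SE 0.25 each, adjusted p = 0.00065 and 0.0022).

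The 29 matches also place these rows along the genome. Sorted by CUT number, they run through the chromosomes in order on the plus strand and then again on the minus strand, and all 28 neighbouring pairs follow that order. The 19 on the plus strand run up to CUT392, and the 10 on the minus strand start at CUT484. The matches were found from reads alone, so this order is a separate description of the same 29 rows. No position was assigned to any other CUT from it.

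A further 11 CUT rows held the reads of a SUT row by the same rule, among them CUT530 with SUT489, CUT205 with SUT205 and CUT185 with SUT175. In a looser search among 31 other rows with at least 2000 reads, 3 rows were a nearly constant multiple of a gene row. CUT427 stood at 88.9% to 93.5% of the reads of RPL43A, a ribosomal protein gene on chromosome XVI, in every library. CUT077 stood at 93.2% to 96.7% of BFR2, and CUT070 at 104% to 110% of CDC37, whose position on chromosome IV falls after that of the gene matched by CUT074 and so against the order above. With these looser matches chance likeness was not tested.

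**Figure D1:**
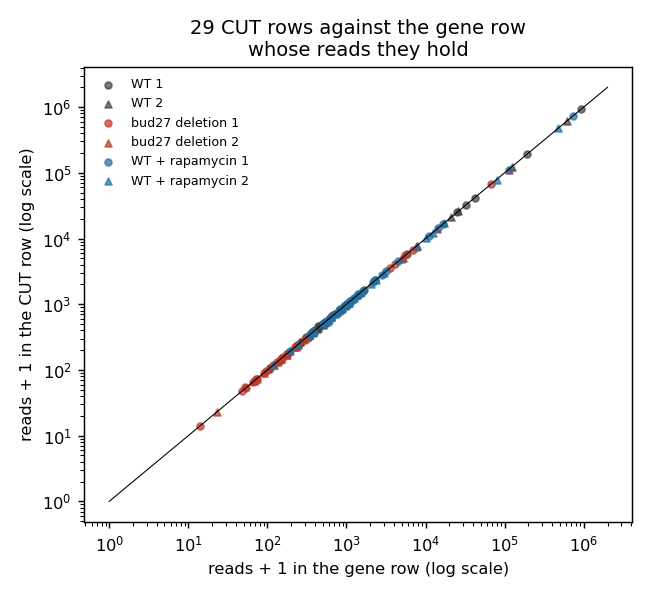
Reads of the 29 CUT rows that hold a gene's reads (vertical axis, reads + 1, log scale) against the reads of that gene row (horizontal axis, reads + 1, log scale), with 1 point per row and library, colours for the groups and symbols for the replicates. The points of all 6 libraries lie along the line of equal reads, up to CUT628 and TDH3 at the upper end.

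All CUT rows together took 5.98% and 5.86% of the reads in WT, 3.71% and 4.0% in the mutant and 4.38% and 4.19% under rapamycin. The rows that hold a gene's reads made up between 69.7% and 77.3% of these CUT reads. Both other groups lay below both WT libraries, and each difference had an exact two-sided permutation p of 0.333, the smallest that 2 samples against 2 can give. Without the 29 rows the share was 1.39% and 1.33% in WT, 0.871% and 1.03% in the mutant and 1.19% and 1.27% under rapamycin. Without the 10 most abundant CUT rows, 5 of which hold a gene's reads, it was 0.396% and 0.428% in WT, 0.497% and 0.429% in the mutant and 0.400% and 0.389% under rapamycin. The direction in the mutant thus turned, with means of 0.412% ± 0.0227 in WT and 0.463% ± 0.0475 in the mutant (SD, n = 2), so the summed share rests on a few rows. Under rapamycin the mean was 0.394% ± 0.00831 (SD, n = 2), and its libraries overlapped those of WT.

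**Figure D2:**
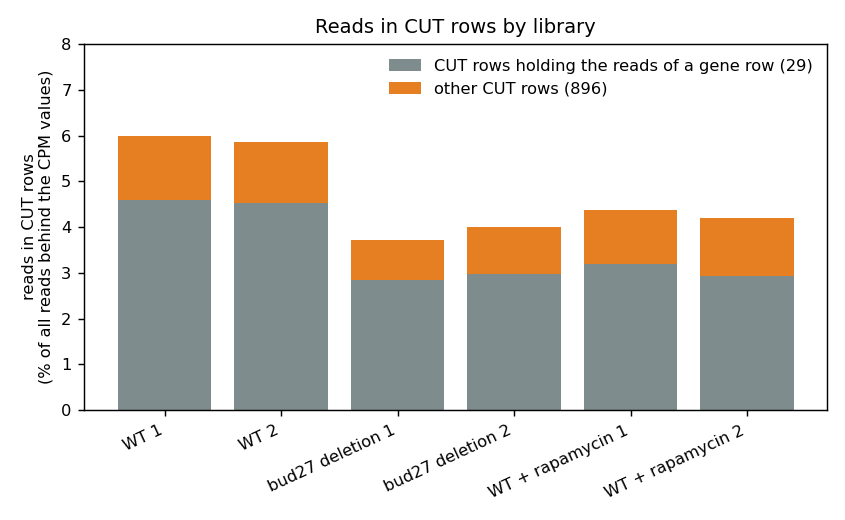
Bars give the percentage of all reads that fell in CUT rows in each library, split into the 29 rows that hold the reads of a gene row (grey) and the other 896 CUT rows (orange). The grey part is the larger in all 6 libraries, and the total runs from 3.71% to 5.98%.

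Most CUTs were rare. The median CUT row had 63 reads over all 6 libraries together, and its mean level over the libraries was 0.682 CPM, against 1.81 CPM for SUT rows and 25.2 CPM for gene rows. 568 CUT rows had a mean under 1 CPM and 112 a mean of at least 5 CPM. 5 rows had no read in any library, and 563 had a read in all 6. In single libraries a read was seen in 893 and 878 CUT rows in WT, in 862 and 824 under rapamycin, and in 673 and 720 in the shallower mutant libraries. A row listed at 0 could still stand for 3 reads, or 0.934 CPM in the shallowest mutant library and 0.104 CPM in the deepest rapamycin library, and the former is above the level of most CUTs. Such floors cover counting error only. The filter on low values kept 609 CUT rows, of which 29 hold a gene's reads by the rule above and 580 had no match with a gene by that rule. The 580 include the 11 rows that hold a SUT's reads and the 3 near multiples of a gene row. Reads of those 11 count in both classes where CUT and SUT rows are compared. Only the 165 CUT rows with at least 300 reads were searched for a match. Whether rarer rows among the 580 hold a gene's reads was not tested. The 316 rows left out had means of at most 0.620 CPM. A row that passed only through the group in which it is high had to differ, so the counts that follow describe the rows tested and not all CUTs.

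The most abundant CUT rows without a gene match reached the level of well expressed genes. Neither search for matches would find a row that holds part of a gene's reads mixed with others. Whether these rows do so was not tested, so they cannot be taken as noncoding RNA alone. CUT538, the highest, had 5145 and 4560 scaled CPM in WT, 1613 and 2761 in the mutant and 4743 and 5315 under rapamycin. The mutant libraries lay below all others, with a log2 change against WT of -1.20 (SE 0.29, adjusted p = 0.011), while the value for rapamycin was 0.05 (SE 0.29, adjusted p = 0.90). The rapamycin value depends on the scale. On the deposited CPM, without the library factors, it was 0.66 and passed limma's test, at an adjusted p of 0.031. CUT427, the near multiple of RPL43A, fell in both, by 1.22 on the log2 scale in the mutant (SE 0.20, adjusted p = 0.002) and by 1.61 under rapamycin (SE 0.20, adjusted p = 0.00041). CUT544 had 4134 and 3002 scaled CPM in WT, 943 and 1579 in the mutant and 713 and 699 under rapamycin, so the groups did not overlap. Its log2 changes were -1.53 (SE 0.27, adjusted p = 0.003) and -2.32 (SE 0.27, adjusted p = 0.00035). CUT894 differed from WT only in the mutant at this threshold, at -1.13 (SE 0.24, adjusted p = 0.0064) against -0.23 under rapamycin (SE 0.24, adjusted p = 0.47), and between deletion and rapamycin by -0.90 (SE 0.24, adjusted p = 0.013).

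CUT337 passed the test in neither comparison with WT, with log2 changes of -0.30 and -0.34 (SE 0.15 each, adjusted p = 0.15 and 0.11). CUT413 and CUT485 were lowest under rapamycin. CUT413 fell by 1.90 there (SE 0.14, adjusted p = 3.7e-05) and by 0.64 in the mutant (SE 0.14, adjusted p = 0.0068), which became 0.20 on the deposited scale. CUT485 fell by 1.93 under rapamycin (SE 0.13, adjusted p = 2.9e-05), and its value in the mutant was -0.35 (SE 0.13, adjusted p = 0.057). CUT404 went the other way in the mutant, with 387 and 439 scaled CPM against 244 and 201 in WT and 158 and 154 under rapamycin. It rose by 0.90 in the mutant (SE 0.15, adjusted p = 0.0021) and fell by 0.50 under rapamycin (SE 0.15, adjusted p = 0.025), where the value on the deposited scale was 0.11. Of these 8 rows, 5 fell and 1 rose in the mutant, where 25.9% of all rows fell and 19.2% rose. Under rapamycin 5 fell, where 20.8% of all rows fell and 23.3% rose. CUT427, the near multiple of RPL43A, is among the falls of both. The rows are few and were picked for abundance.

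The first comparison asked which CUTs differ between the bud27 deletion and WT. More CUT rows fell than rose: of the 580 without a gene match, 156 were lower and 56 higher (26.9% and 9.66%), and 368 did not pass limma's test at an adjusted p of 0.05. Over all 6551 rows tested, 45.2% passed the test, 25.9% lower and 19.2% higher, so the share of falls was near the background and the share of rises below it. The median log2 change was -0.32, against -0.08 for all rows, -0.02 for gene rows and -0.29 for SUT rows, where 29.3% fell and 9.65% rose. Of the calls, 80 falls and 36 rises reached a log2 change of 1 (13.8% and 6.21%), close to the 12.3% and 6.56% of all rows. The scale moves these counts. On the deposited CPM, without the library factors, 97 CUT rows were lower and 84 higher (16.7% and 14.5%, against 13.8% and 36.9% of all rows), and the CUT median was -0.08 against 0.29. The CUT rows thus lay below the median of all rows on both scales. With the 29 gene matches included, the counts among 609 rows were 165 lower and 62 higher, and without WT replicate 2 they were 88 and 40.

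Abundance bears on this comparison, because rare rows in the shallow mutant libraries rest on few reads. Among CUT rows with a mean under 1 CPM the median log2 change was -0.32 over 252 rows, and gene rows of that abundance had -0.20 over 96 rows. At 1 to 5 CPM the CUT median was -0.29 (245 rows), against -0.15 for genes (419 rows) and -0.25 for SUTs (370 rows). At 5 to 20 CPM the CUT median was -0.33 over 56 rows, against 0.13 for 1636 gene rows and -0.44 for 142 SUT rows. At 20 CPM or more it was -0.35 over 27 CUT rows, against -0.08 for 3128 gene rows. CUT and SUT rows were thus alike in sign in every band, while gene rows were above 0 in the band from 5 to 20 CPM.

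Among the 11 CUT rows that met the naming rule given below, CUT507 and CUT303 rose most in the mutant. CUT507 was seen with 52 and 22 reads in WT, 59 and 103 in the far shallower mutant libraries and 76 and 35 under rapamycin, which is 2.52 and 1.51 scaled CPM, then 16.4 and 20.1, then 2.21 and 1.40. Only the mutant libraries stood high among these 6, with a log2 change of 2.69 (SE 0.25, adjusted p = 0.00016). CUT303 had 1.94 and 2.46 scaled CPM in WT and 15.3 and 12.3 in the mutant, a log2 change of 2.20 (SE 0.20, adjusted p = 0.00016). Its groups did not overlap, and it was nearly absent under rapamycin, with 1 read in replicate 1 and 0 in replicate 2.

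CUT377 followed at 1.45 (SE 0.18, adjusted p = 0.00054), with 7.17 and 7.05 scaled CPM in WT against 21.6 and 20.7 in the mutant. CUT126, CUT556, CUT680, CUT404 and CUT561 rose by log2 changes of 1.26, 1.24, 1.24, 0.90 and 0.87. CUT126 varied between the mutant libraries, at 23.0 and 10.9 scaled CPM. It no longer passed when WT replicate 1 (adjusted p = 0.12) or WT replicate 2 (0.055) was left out, and its value was 0.79 without mutant replicate 1. The call of CUT561 was lost without WT replicate 2 (log2 change 0.52, adjusted p = 0.12). The rule that named these rows required a mean of at least 5 CPM, both mutant libraries above both WT libraries and a place among the 8 largest of 11 such rows. CUT507, CUT303, CUT556 and CUT561 reached that mean only through the mutant libraries, so their p-values describe rows picked partly for being high there. Rows below that mean were not ranked.

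CUT146 had the largest fall among the rows that met the naming rule. It went from 74.9 and 50.7 scaled CPM in WT to 11.4 and 6.04 in the mutant, while the rapamycin libraries stood at 77.2 and 70.9. Its log2 change in the mutant was -2.75 (SE 0.28, adjusted p = 0.00024), and its reads there were 41 and 31. CUT496 fell by 2.49 (SE 0.28, adjusted p = 0.00038), from 14.4 and 23.5 scaled CPM to 3.05 and 1.95. CUT851 fell by 2.43 (SE 0.19, adjusted p = 6.4e-05), from 11.9 and 14.4 to 1.66 and 1.56. In all 3 rows the mutant libraries lay below both WT libraries, as the naming rule required. CUT496 and CUT851 reached its mean of 5 CPM only through the WT libraries, so their p-values describe rows picked partly for being high there.

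CUT147, the next number after CUT146, fell by 2.40 in the mutant (SE 0.42, adjusted p = 0.0028), with 4 and 25 reads there against 309 and 302 in WT. Its mutant libraries differed more from each other than those of CUT146. CUT281 fell by 2.40 (SE 0.21, adjusted p = 0.00011), with 3 and 3 reads in the mutant against 141 and 136 in WT. After scaling its WT reads were 11.4 times those of the mutant, with an exact 95% counting interval of 5.19 to 31.5. CUT287, CUT465 and CUT091 fell by 2.13, 1.90 and 1.72, and CUT287 was the most abundant of them, at 431 and 391 scaled CPM in WT against 81.8 and 105 in the mutant. CUT091 had 8.82 and 22.5 scaled CPM in the WT libraries, and leaving out the higher of them (WT replicate 2) gave -1.10, leaving out the lower -2.36. It reached the mean of 5 CPM only through WT, so its fall is that of a row picked partly for being high there. limma gave each row 1 spread over shallow and deep libraries, and counting error at a few reads was not modelled separately.

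12 CUT rows were listed at 0 in both mutant libraries but had at least 10 reads in each WT library. They were picked for that difference, so their values are a description with no test. Set against 3 reads over both mutant libraries, they ran from CUT195, at least 1.74-fold lower, to CUT466, with 13 and 40 reads in WT and at least 4.38-fold lower. No CUT row was listed at 0 in WT with at least 10 reads in both libraries of another group. Depth bears on this contrast, since in the shallow mutant libraries a 0 is likelier and 10 reads stand for a higher level. The same count over gene rows was not made, so the numbers are not a result about CUTs.

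**Figure D3:**
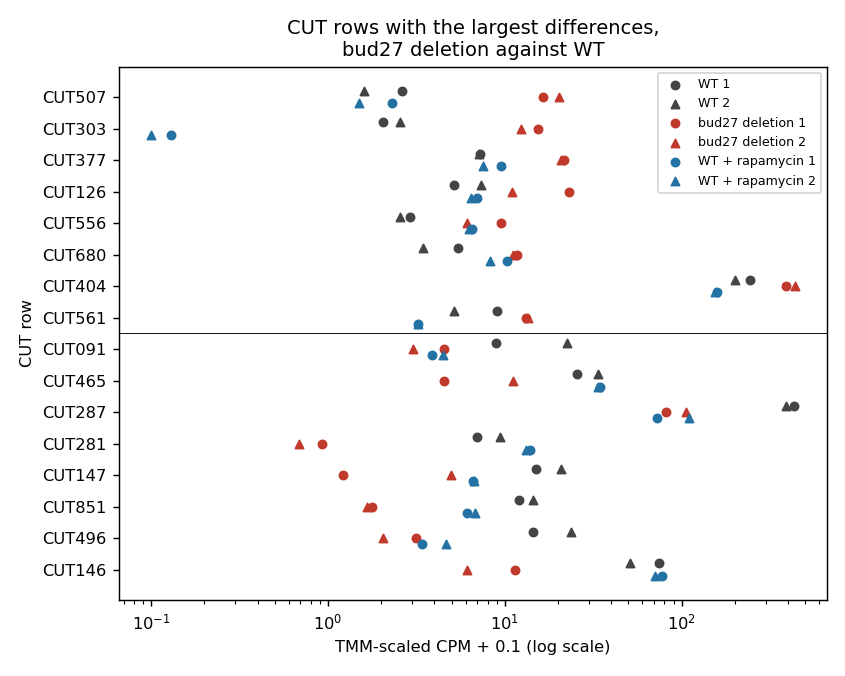
TMM-scaled CPM + 0.1 (horizontal axis, log scale) of the 8 CUT rows with the largest rises (above the line) and the 8 with the largest falls (below it) in the mutant. All met the naming rule, and each library has 1 point. CUT303 separates all 3 groups, with the rapamycin libraries at the far left, and the mutant libraries of CUT146 stand apart from the other 4.

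The second comparison asked how CUT levels differ after a night in rapamycin. CUT rows fell far more often than they rose, and SUT rows did the opposite. Of the 580 CUT rows without a gene match, 169 were lower and 43 higher (29.1% and 7.41%), while over all rows 44.1% passed the test, 20.8% lower and 23.3% higher. Of 663 SUT rows, 59 were lower and 210 higher (8.90% and 31.7%). The median log2 change was -0.42 for these CUT rows, 0.33 for SUT rows, 0.05 for gene rows and 0.03 for all rows. A log2 change of 1 was reached by 82 of the falls and 17 of the rises (14.1% and 2.93%), against 8.87% and 10.6% of all rows. On the deposited CPM scale the CUT counts were 94 lower and 97 higher (16.2% and 16.7%, against 8.5% and 50.8% of all rows), and the medians were -0.11 for CUT rows, 0.72 for SUT rows and 0.56 for all rows. The order of the 3 classes was the same on both scales, but the balance of falls and rises among CUTs was not. With the 29 gene matches the counts among 609 rows were 176 lower and 46 higher. Leaving out any 1 of the 4 libraries compared lowered them, to between 85 (without rapamycin replicate 2) and 120 (without WT replicate 1) falls and between 20 (without rapamycin replicate 1) and 26 (without WT replicate 2) rises.

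The gap between CUT and SUT rows was present at each level of abundance. In rows with a mean under 1 CPM the medians were -0.41 for CUTs (252 rows) and 0.08 for SUTs (122 rows), with 0.14 for genes (96 rows). At 1 to 5 CPM they were -0.38, 0.37 and 0.29 for CUTs, SUTs and genes, and at 5 to 20 CPM -0.47, 0.50 and 0.13. At 20 CPM or more the CUT median was -0.57 over 27 rows, the SUT median 0.96 over 29 rows and the gene median -0.06. Summed over all rows, SUT reads took 0.204% and 0.239% of the reads in WT and 0.555% and 0.533% under rapamycin.

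**Figure D4:**
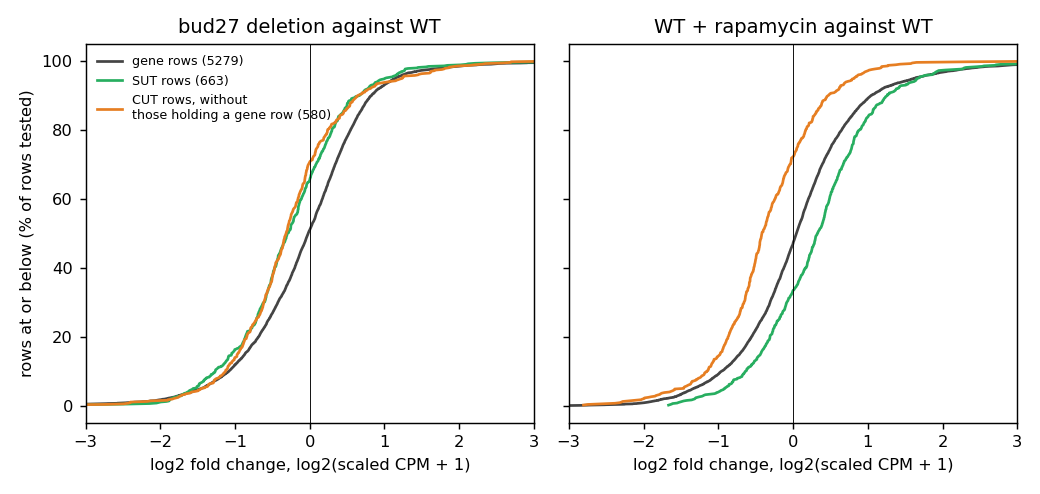
Cumulative percentage of tested rows (vertical axis) at or below each log2 change (horizontal axis, on log2(scaled CPM + 1)) in the mutant (left) and under rapamycin (right), for gene rows, SUT rows and the 580 CUT rows without a gene match. In the mutant the CUT and SUT curves run together to the left of the genes, and under rapamycin they lie on opposite sides of the genes, with medians of -0.42 and 0.33.

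CUT904 rose most under rapamycin among the rows that met the naming rule. Its reads numbered 48 and 30 in WT, 9 and 23 in the mutant and 1199 and 744 under rapamycin, or 2.33 and 2.05, then 2.50 and 4.48, then 34.9 and 29.8 scaled CPM. The rapamycin libraries stood far above the other 4, with a log2 change against WT of 3.38 (SE 0.24, adjusted p = 3.7e-05). CUT530, which holds the reads of SUT489 (2751 against 2748 in all), rose by 1.18 (SE 0.29, adjusted p = 0.011), with 18.4 and 11.5 scaled CPM in WT and 37.9 and 31.1 under rapamycin.

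Next were CUT556 at 1.0, CUT767 at 0.98, CUT680 at 0.95, CUT125 at 0.92 and, at 0.82 each, CUT415, which holds the reads of SUT403, and CUT629. CUT904 and CUT629 kept their calls without any 1 library. The others were lost in 1 to 3 of the fits that left out a library, with adjusted p-values from 0.058 for CUT767 without WT replicate 1 to 0.12 for CUT415 without rapamycin replicate 2. In between lay those without WT replicate 2 for CUT530 (0.11), CUT556 (0.066), CUT680 (0.076) and CUT415 (0.076), without WT replicate 1 for CUT125 (0.077) and CUT415 (0.093), and without rapamycin replicate 1 for CUT680 (0.082) and CUT125 (0.098). The 8 rows are those with the largest rises of 9 that met the naming rule. CUT904 and CUT125 reached its mean of 5 CPM only through the rapamycin libraries, so their p-values describe rows picked partly for being high there.

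Among the rows that met the naming rule, the largest fall was that of CUT681. It went from 10.3 and 18.6 scaled CPM in WT to 1.51 and 0.960 under rapamycin, a log2 change of -2.74 (SE 0.34, adjusted p = 0.00049). The mutant libraries, at 5.83 and 11.1, overlapped those of WT. CUT226 had 11.7 and 11.2 scaled CPM in WT, 15.3 and 14.4 in the mutant and 2.15 and 1.04 under rapamycin. It fell by 2.30 (SE 0.23, adjusted p = 0.00018), with both rapamycin libraries below the other 4.

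CUT544, described above, and CUT287 were the abundant rows among the falls. CUT287 fell by 2.19 (SE 0.21, adjusted p = 0.00015), to 72.2 and 110 scaled CPM, a level that overlapped that of the mutant. CUT567, CUT180, CUT433 and CUT496 fell by 2.03, 2.02, 1.99 and 1.99, with SEs of 0.19 to 0.32. CUT433 was the closest of them between replicates, with 21.8 and 20.7 scaled CPM in WT and 5.27 and 4.0 under rapamycin. CUT180 and CUT496 reached the mean of 5 CPM only through WT, so their falls are those of rows picked partly for being high there. CUT195 was the 1 CUT listed at 0 in both rapamycin libraries with at least 10 reads in each WT library, where it had 11 and 10, at least 11.8-fold lower than WT when set against 3 reads over the group, again a description of a row picked for being at 0. It was also among the 12 at 0 in the mutant.

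**Figure D5:**
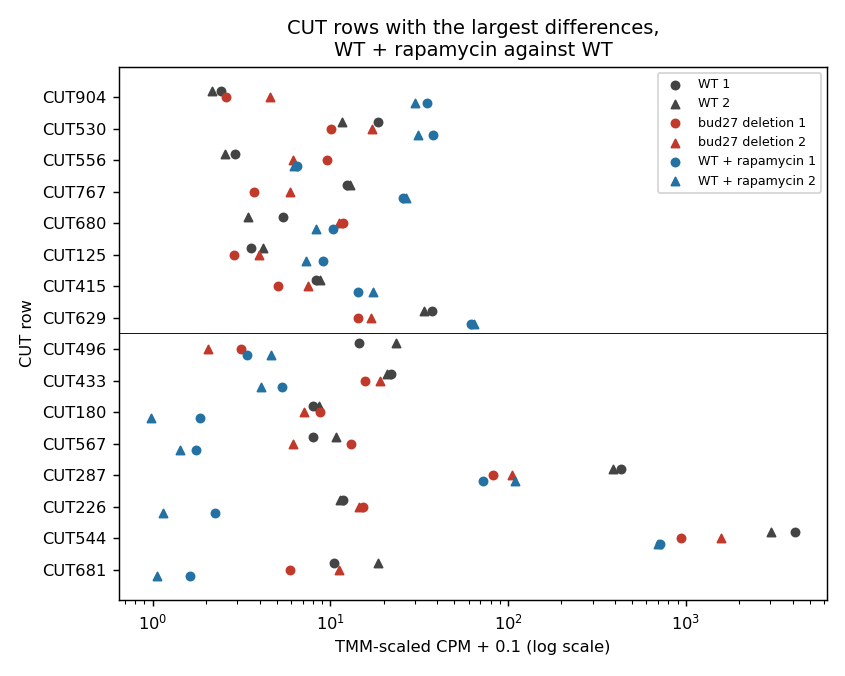
TMM-scaled CPM + 0.1 (horizontal axis, log scale) of the 8 CUT rows with the largest rises (above the line) and the 8 with the largest falls (below it) under rapamycin. All met the naming rule, and each library has 1 point. The rapamycin libraries of CUT904 lie at 34.9 and 29.8 scaled CPM, right of the other 4, and those of CUT226, CUT180 and CUT567 lie left of the other 4.

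The third comparison set the mutant against rapamycin, which the study's design brings together through a common WT. The comparisons of mutant and of rapamycin with WT use the same 2 WT libraries, so likeness between them was not counted as a result. Of the 580 CUT rows, 137 were higher in the mutant and 98 lower (23.6% and 16.9%), against 23.7% and 29.9% of all rows, of which 53.6% differed in either direction. SUT rows differed more often than CUT rows, at 55.1% against 40.5%, but near the share over all rows. Of 663 SUT rows, 55 were higher and 310 lower (8.30% and 46.8%). The CUT median was 0.10 and that of all rows -0.05. On the deposited scale 129 CUT rows were higher and 121 lower (22.2% and 20.9%, against 17.1% and 35.1% of all rows). With the gene matches the counts were 149 and 102 of 609, and they were 96 and 66 without rapamycin replicate 1 and 80 and 62 without rapamycin replicate 2.

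CUT303 differed most between deletion and rapamycin among the rows named. Its log2 change was 3.86 (SE 0.20, adjusted p = 5.8e-06), and its 118 reads in the mutant against 1 under rapamycin gave a scaled ratio of 801, with an exact 95% counting interval of 141 to 31910. Against WT it fell by 1.65 under rapamycin (SE 0.20, adjusted p = 0.00046), with 76 reads in WT. It was thus higher than WT in the mutant and lower than WT under rapamycin. CUT507, CUT226 and CUT585 were also higher in the mutant, by 2.78, 2.64 and 2.12, with SEs of 0.23 to 0.30. CUT303 and CUT507 reached the mean of 5 CPM only through the mutant libraries. Their values here, with the interval of CUT303, thus describe rows picked partly for being high there.

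Lower in the mutant than under rapamycin were CUT281 at -3.08 (SE 0.21, adjusted p = 1.7e-05), CUT146 at -3.01, CUT904 at -2.92 and CUT767 at -2.26. CUT281 and CUT904 reached the mean of 5 CPM only through the rapamycin libraries, so these values describe rows picked partly for being high there. CUT281 was lower than WT in the mutant and, at 13.8 and 13.0 scaled CPM against 6.84 and 9.31 in WT, higher than WT under rapamycin, by 0.68 (SE 0.21, adjusted p = 0.029). CUT767 showed the same pattern, with 12.4 and 12.9 scaled CPM in WT, 3.61 and 5.84 in the mutant and 25.4 and 26.4 under rapamycin. Its fold change in the mutant was -1.28 (SE 0.21, adjusted p = 0.0022). CUT629 likewise fell by 1.15 in the mutant (SE 0.15, adjusted p = 0.00066) and rose by 0.82 under rapamycin (SE 0.15, adjusted p = 0.0027).

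The genes whose products end and degrade CUTs were themselves measured, as a list of 31 that was all tested. Under rapamycin 10 of 13 exosome genes fell and none rose, with a median log2 change of -0.62, while 20.8% of all rows fell and 23.3% rose. RRP6, the nuclear exonuclease for which CUTs are the classic substrate, fell by 0.62 (SE 0.19, adjusted p = 0.028), from 51.1 to 32.7 scaled CPM on average. DIS3, the catalytic subunit of the core, fell by 0.65 (SE 0.13, adjusted p = 0.0051) and the cap subunit gene CSL4 by 0.72 (SE 0.13, adjusted p = 0.0027). On the deposited scale, where 8.5% of all rows fell and 50.8% rose, none of the 13 fell and 1 rose, with a median of -0.03 when that of all rows was 0.56. The median of the exosome genes thus lay below that of all rows on both scales, and LRP1, at 0.09 and 0.68, lay above it on both.

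In the mutant the same 13 genes gave 2 rises and 3 falls, numbers near the shares over all rows of 19.2% and 25.9%. CSL4 fell by 1.06 (SE 0.13, adjusted p = 0.00054), RRP40 by 0.48 and RRP46 by 0.42, while LRP1, a partner of Rrp6, rose by 0.59 (SE 0.14, adjusted p = 0.011) and RRP4 by 0.59 (SE 0.21, adjusted p = 0.047). The falls of RRP40 and RRP46 became -0.06 and 0.01 on the deposited scale, while that of CSL4 was -0.62. RRP6 had a log2 change of 0.49 (SE 0.19, adjusted p = 0.065).

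Of the TRAMP genes, MTR4, the helicase, and PAP2, a poly(A) polymerase also called TRF4, fell under rapamycin by 1.05 (SE 0.17, adjusted p = 0.0018) and 1.0 (SE 0.14, adjusted p = 0.00082), and both were below 0 on the deposited scale too, at -0.45 and -0.42. AIR2, an RNA-binding subunit, rose by 0.86 in the mutant (SE 0.22, adjusted p = 0.016). The termination genes moved both ways in the mutant. NRD1 rose by 0.96 (SE 0.17, adjusted p = 0.0032) and the helicase gene SEN1 by 0.92 (SE 0.16, adjusted p = 0.0023). NAB3 fell by 1.0 (SE 0.13, adjusted p = 0.00069) and the cleavage factor gene PCF11 by 1.45 (SE 0.18, adjusted p = 0.00057). These 4 kept their sign on the deposited scale. Under rapamycin NRD1 fell by 0.52 (SE 0.17, adjusted p = 0.04), with a value of 0.03 on the deposited scale.

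The reads of SSU72, a phosphatase of termination, are also counted in CUT323, and the gene passed the test in neither comparison with WT. Of the 8 genes for decapping, 5′ to 3′ decay and nonsense-mediated decay, 2 rose in the mutant, DCP2 by 0.81 (SE 0.23, adjusted p = 0.023) and NMD2 by 0.46 (SE 0.13, adjusted p = 0.022). None passed the test under rapamycin. Over the whole list of 31, 7 rose and 5 fell in the mutant, against 19.2% and 25.9% of all rows, and on the deposited scale 15 rose and 3 fell, against 36.9% and 13.8%. Under rapamycin none rose and 13 fell, against 23.3% and 20.8% of all rows, and on the deposited scale 7 rose and 2 fell, against 50.8% and 8.5%. Whether the levels of these genes have a part in those of the CUTs was not tested.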

How the data were processed

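RNA was measured in 6 samples of 3 groups. Per the submitters' processing notes, the build was R64 and the tools included HISAT2 and FastQC, with DESeq and DESeq2. How reads were counted over rows, by which annotation of CUTs, on which strand, and what was done with reads of more than one place is not given in the sources used here. Deposited values are the authors' CPM, of which 100% in each library were whole multiples of 1 read within 0.01 reads, so reads were recovered. edgeR's filterByExpr on the groups, with a minimum of 10, left 6551 rows of all classes. CPM were divided by TMM factors from the gene rows (edgeR 4.0.16), between 0.767 in WT and 1.20 with rapamycin. On log2(scaled CPM + 1), which understates changes of rare rows, limma 3.58.1 (trend, in R 4.3.3) was run over all 3 groups at once, leaving 3 degrees of freedom. p-values were adjusted by Benjamini and Hochberg over all rows tested, with a threshold of 0.05, and values in parentheses after a fold change are from this fit. Named CUTs hold no gene row and have a mean of at least 5 CPM. They are the 8 largest called rises and falls against WT, the 4 largest in the third comparison, and the 8 most abundant, with both libraries of one group on the same side of both of the other for the calls. The 8 gene-holding rows with the most reads, called genes of the decay list and strain markers are named too. The members, lists and rules were chosen with earlier results of these data known. edgeR and DESeq2 1.42.0 on recovered reads, other scales, pseudocounts and filters, and fits without single libraries were alternatives. In the search for a constant multiple of a gene row, chosen after seeing the data, the log2 ratio stayed within a range of 0.1 over the libraries and its mean within 1.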

Additional observations from a re-analysis of the deposited data

How the results depend on the processing

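Medians of the log2 changes of all 609 tested CUT rows (-0.30 in the mutant against WT, -0.39 under rapamycin, 0.12 for mutant against rapamycin) kept their sign in each setting run, and moved as follows, in that order. They were -0.061, -0.095 and 0.031 on deposited CPM, -0.47, -0.63 and 0.17 with a pseudocount of 0.25, -0.10, -0.13 and 0.043 with one of 5, -0.20, -0.25 and 0.042 with no filter, -0.54, -0.77 and 0.24 by edgeR and -0.49, -0.81 and 0.32 by DESeq2. With only WT and mutant samples the first was -0.26, and with rows of at least 5 CPM the second was -0.25. In the mutant the 62 rises and 165 falls became 94 and 101 on deposited CPM and 17 and 41 at 5 CPM or more, and the falls 94 by DESeq2 and 106 with only those samples. Under rapamycin the 46 rises and 176 falls became 110 and 99, and 12 and 45. Mutant against rapamycin, 149 and 102 became 42 and 29 at 5 CPM or more. Fewer rows are tested at that level. Elsewhere the cause was not tested.

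The log2 ratios of the summed CUT share were -0.62, -0.47 and -0.15. Over listed reads the first was -0.45 and the third -0.0068. They were -1.05, -1.07 and 0.022 for summed scaled CPM, -0.52, -0.15 and -0.38 without rows that hold a gene's reads, 0.17, -0.064 and 0.23 without the 10 most abundant, and, chosen after seeing the data, -0.48, 0.015 and -0.49 also without the constant multiples.

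Leaving out 1 library gave 40 (without WT replicate 2) to 88 (without mutant replicate 2) rises and 88 to 211 falls, from the same fits, in the mutant. It gave 20 (without rapamycin replicate 1) to 26 rises and 85 (without rapamycin replicate 2) to 120 falls under rapamycin, and 80 to 184 and 62 to 119 in the third comparison (without rapamycin replicate 2 and without mutant replicate 2). Medians ranged from -0.35 to -0.29, -0.40 to -0.32 and 0.07 to 0.16. Share ratios ranged from -0.67 to -0.56, -0.50 to -0.44 and -0.21 to -0.10. Of the named calls, 8 were lost in 1 or more of these fits and none turned.

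Samples with the same replicate number did not deviate together, with correlations of -0.0299, -0.0783 and 0.0334. A replicate block gave 61 rises and 158 falls in the mutant, 44 and 169 under rapamycin and 151 and 101 in the third comparison. The mutant libraries hold the fewest reads.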
